A study of Drosophila melanogaster with 3 samples.

Results

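The 8 genes described here, Tlk, mtgo, tara, apt, tou, shep, CG43658 and CG7560, each had 6 or more peaks of the croc-eGFP fusion protein assigned to them. They were picked among genes with that count. They are 8 of 13741 Drosophila melanogaster protein-coding genes that could receive a peak. Across the genome, 21 genes reached 6 peaks, which is 0.153% of those 13741, so the set covers 8 of the 21. The count alone thus does not set the 8 apart from the other 13. The 8 genes hold 57 of 3225 assigned peaks. After a summit closer than the median peak width to a stronger one was merged into it, they hold 50 of 2824 separate sites. A working name for the set was long genes, and the annotation bears this out for 7 of the 8. CG7560 is 1.24 kb long, at percentile 26.9 of protein-coding gene length, so it is described here as a gene with many sites around it and not as a long gene.

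The study mapped where croc sat on the genome by chromatin immunoprecipitation and sequencing (ChIP-seq). Per the labels, the flies carried a transgene that fuses croc to enhanced green fluorescent protein (eGFP), and fragments of whole embryos aged 0 to 18 h were pulled down with an antibody against GFP. There is 1 group, with 3 biological replicates, all of the same genotype, age and antibody, so no comparison between conditions is possible. Whole embryos of this age span many tissues and stages, so a strong site in few cells and a weak site in many cells cannot be told apart. Control libraries were not analysed here.

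The crocodile gene (croc) encodes a transcription factor of the forkhead family, known in Drosophila for its role in the development of head structures. Forkhead proteins bind DNA with a winged-helix domain, and their classical recognition sequence is AT-rich and centred on a TGTTTAC or TATTTAC core. A ChIP-seq peak marks where fragments accumulate, and its summit is the best estimate of the contact point. Many developmental transcription factors of the fly occupy introns and upstream intervals of large genes as well as promoters. Assignment to the nearest transcription start site (TSS) says only which start is closest, and it does not show that croc regulates that gene.

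The sequence under the strongest site of a gene is the most direct view of what was pulled down. The windows below are 101 bases of the Release 6 reference, plus strand, centred on the summit, for the strongest site of 5 of the genes, and none of them holds a forkhead consensus word, so all letters are in lower case.
tara site 2, chr3R:16222441-16222541: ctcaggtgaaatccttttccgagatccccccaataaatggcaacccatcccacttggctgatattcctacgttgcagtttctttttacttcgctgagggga
Tlk site 1, chrX:3742172-3742272: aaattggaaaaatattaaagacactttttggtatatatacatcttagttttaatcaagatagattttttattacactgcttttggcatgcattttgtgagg
CG7560 site 4, chr3L:11418399-11418499: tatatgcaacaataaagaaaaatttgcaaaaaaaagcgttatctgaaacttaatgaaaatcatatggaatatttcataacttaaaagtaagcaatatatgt
shep site 1, chr3L:5187114-5187214: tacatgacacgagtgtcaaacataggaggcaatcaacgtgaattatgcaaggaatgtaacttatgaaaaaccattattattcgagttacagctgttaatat
mtgo site 7, chr2L:16656871-16656971: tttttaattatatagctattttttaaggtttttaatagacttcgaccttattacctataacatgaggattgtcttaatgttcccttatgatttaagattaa

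These windows were 52.5% AT at tara site 2, 74.3% at Tlk site 1, 78.2% at CG7560 site 4, 66.3% at shep site 1 and 76.2% at mtgo site 7. The strongest site of all, tara site 2, was thus the least AT-rich of these. Over all 50 sites, AT content averaged 70.3% ± 7.86 (SD, n = 50 sites), against 69.0% ± 8.58 over all 2824 assigned sites. In windows moved 500 bp to the left it was 56.7% ± 11.0 at the 50 sites and 56.2% ± 10.3 at all sites. Of the 50 summits, 43 were more AT-rich than that left flank (86.0%), against 82.5% of all sites, 1 was equal and 6 were less AT-rich. The exceptions include tara site 2, shown above, with 52.5% at the summit and 84.2% in the flank. The others were tara 4, apt 1, shep 4, CG43658 2 and CG7560 6.

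The next windows are shown because they carry forkhead consensus words. The words searched for, on both strands, were TATTTAC and its variant TATTTAT, and also TGTTTAC with its variant TGTTTAT. Capitals mark the matches. A match on the minus strand appears as its reverse complement (GTAAATA stands for TATTTAC, and likewise ATAAATA stands for TATTTAT).
Tlk site 3, chrX:3744174-3744274: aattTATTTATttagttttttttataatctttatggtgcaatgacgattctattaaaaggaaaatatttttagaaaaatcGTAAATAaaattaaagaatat
Tlk site 4, chrX:3748390-3748490: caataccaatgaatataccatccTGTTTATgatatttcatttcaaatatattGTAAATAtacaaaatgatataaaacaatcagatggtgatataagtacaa
CG7560 site 3, chr3L:11417669-11417769: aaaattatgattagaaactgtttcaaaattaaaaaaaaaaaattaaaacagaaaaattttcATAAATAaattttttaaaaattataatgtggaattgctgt

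Tlk site 3 had a TATTTAT centred 43 bp to the left of the summit and a TATTTAC on the minus strand 33 bp to its right. Tlk site 4 had a TGTTTAT 24 bp to the left and a TATTTAC on the minus strand 5 bp to the right. CG7560 site 3 had 1 TATTTAT on the minus strand, 14 bp to the right, inside a window that is 86.1% AT.

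Across the 50 sites, 12 held at least 1 of the 4 words within 50 bp of the summit, or 24.0% (exact Clopper-Pearson 95% interval 13.1 to 38.2%), against 25.3% of all assigned sites. In the windows moved 500 bp to the left the share was 6.0% (3 sites, interval 1.25 to 16.5%), against 14.4% at all sites. The share at the summits is therefore near the genome-wide one. The left windows of the 50 sites were less AT-rich (mean 56.7%, against 70.3% at the summits), and TATTTAT holds only A and T. How far this sets their lower share was not tested. By word, TATTTAT stood at 9 of the 50 sites (18.0%, against 15.0% of all sites), TATTTAC at 2 (4.0%, against 5.42%), TGTTTAT at 2 (4.0%, against 5.35%) and TGTTTAC at 1 (2.0%, against 2.69%). That single TGTTTAC, the core of the classical forkhead word, lay exactly at the summit of tou site 4.

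The matches were unevenly spread over the genes. Tlk had a match at 4 of its 7 sites, tou at 3 of 5, CG7560 at 2 of 6, and tara, apt and shep at 1 each, while mtgo (7 sites) and CG43658 (6 sites) had none in these windows. The site with most matches was tou site 5, with 3 TATTTAT, a weak site with a signal of 120.8 that no replicate's thresholded list held. None of the strongest sites of Tlk, mtgo, tara, tou, shep, CG43658 and CG7560 held a match. At apt, the strongest site (site 6) held a TATTTAT 16 bp to the left of its summit. A match is a description of letters and not proof of a binding site.

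The strongest site of CG43658 has another sequence feature, seen only after its letters were read. Its window, 49.5% AT and the lowest in AT among the 50, holds ATGGCGCCA once on each strand, in capitals below (TGGCGCCAT is the word on the minus strand).
CG43658 site 6, chrX:17531943-17532043: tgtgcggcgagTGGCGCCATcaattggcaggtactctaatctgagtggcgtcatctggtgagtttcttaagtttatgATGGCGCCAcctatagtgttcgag

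ATGGCGCCA occurred at 1 of the 50 sites (2.0%), the site it was read from, and at 13 of all 2824 assigned sites (0.460%), that site included. The 2 shares are therefore not a comparison. The word TATCGATA, also searched, occurred at none of the 50 sites (which allows up to 7.11%, the upper bound of the exact interval for a count of 0) and at 0.992% of all sites.

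The signal of a peak is the peak caller's own value, of unstated scale, so values were set side by side only within a list. In the conservative list of the series, the 50 sites ranged from 80.4 to 1573.6 with a median of 212.0, against a median of 205.4 over all assigned sites. The genes went both ways, with medians of 131.3 at mtgo and 170.5 at CG43658 but 363.8 at tara and 450.6 at CG7560, so the pooled median describes no single gene. The interval of the conservative peak was also in all 3 of the other thresholded lists of the series for 37 of the 50 sites (74.0%, interval 59.7 to 85.4%), against 72.5% of all sites. The 7 merged peaks lay 200 to 209 bp from a stronger summit and had signals of 5.4 to 51.4. Each is weaker than the site it stood beside by the merging rule. Merging took tou to 5 sites, which is under 6, and left the other genes at 6 or 7. Counted as sites, 13 genes (0.0946%) held 6 or more.

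**Figure D1:**
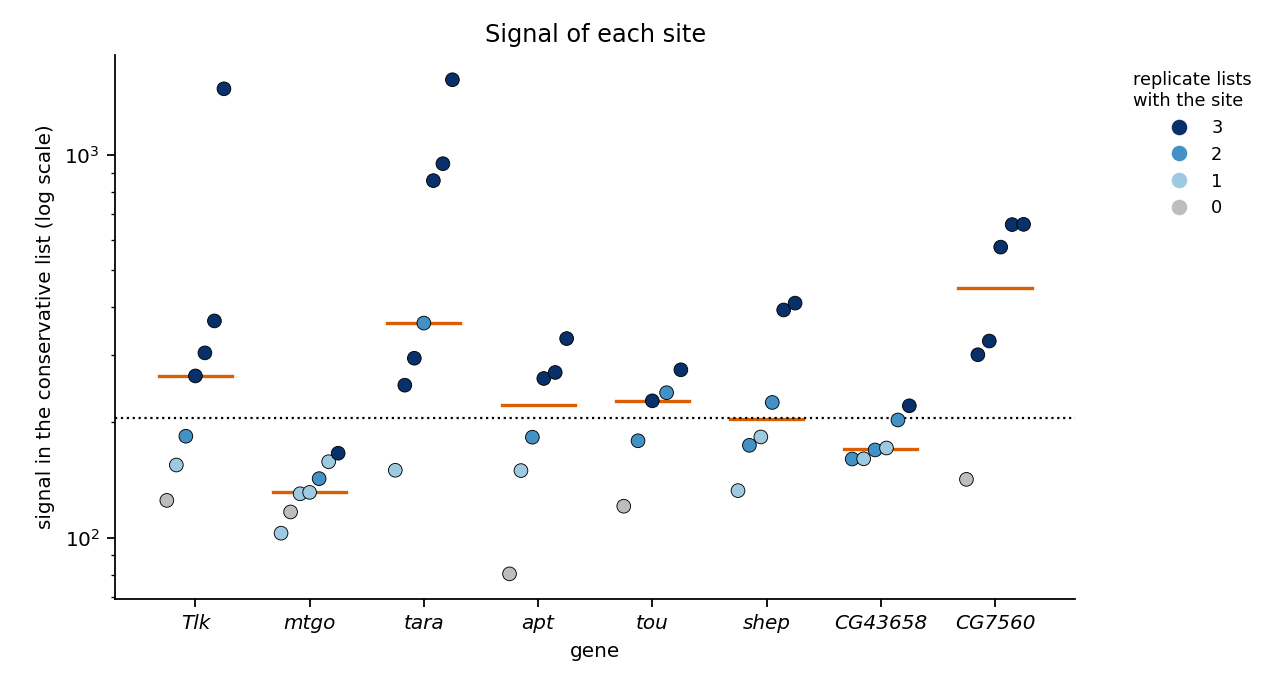
Signal of each of the 50 sites in the conservative list, on a log axis, by gene. Each point is a site and its shade gives how many of the 3 thresholded replicate lists held it. Orange bars are gene medians and the dotted line is the median of all 2824 assigned sites (205.4). Sites at mtgo and CG43658 lie close together and low, whereas Tlk, tara and CG7560 reach above 600.

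Tara and Tlk held the strongest sites of the set. Taranis (tara) encodes a nuclear protein that interacts genetically with trithorax and Polycomb group genes and is related to the vertebrate SERTAD proteins. It lies on 3R at 16225651 to 16260329 (plus strand, 34.7 kb). Its site 2, with the summit at 16222491 and 3160 bp upstream of the nearest tara TSS, had a signal of 1573.6 and ranked 23 of 3650 peaks of the conservative list. In the replicates' own thresholded lists it had signals of 695.0, 532.8 and 326.9, at ranks 19 of 3198, 33 of 2433 and 32 of 1822 for replicates 1, 2 and 3. All 3 replicates thus placed it near the very top of their lists. Below, a replicate list is the thresholded one unless it is called ranked.

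Site 6 of tara (3R 16236956, intronic) had a signal of 949.4 and site 3 (3R 16224510, 1141 bp upstream) 857.4. In replicates 1, 2 and 3, site 6 had signals of 391.1, 383.0 and 184.2 at ranks 90, 83 and 141. Site 3 had 339.6, 358.4 and 161.0 at ranks 134, 97 and 202. Both stayed in the upper part of every list. The remaining tara sites were 5 (363.8), 1 (294.4), 4 (250.3) and 7 (150.0). Site 7 was in the thresholded list of replicate 1 only, and site 5 in those of replicates 1 and 2. The long noncoding RNA gene lncRNA:CR45643 starts closer than tara to sites 1, 2 and 3, at 1502, 904 and 910 bp, against 3758, 3160 and 1141 bp from tara. These 3 sites were assigned to tara because noncoding genes were not considered, and which gene they relate to cannot be told from proximity.

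Tlk encodes Tousled-like kinase, a nuclear kinase that acts in chromatin assembly during replication. It lies on X at 3720007 to 3789770 (plus strand, 69.8 kb) and has 8 annotated starts, the most of the set. Its 7 sites are all in its own introns. Site 1 (X 3742222) had a signal of 1490.0, rank 29 of 3650, and ranks of 37, 24 and 34 in the lists of replicates 1, 2 and 3, with signals of 555.9, 616.4 and 318.8. The other 6 Tlk sites had signals of 125.1 to 368.5, so site 1 stands well above the rest of its gene. The next strongest, site 5, had 159.5, 124.9 and 84.9 in replicates 1, 2 and 3, at ranks 585, 781 and 736. The 7 sites were nearest to 5 of the 8 starts. Sites 1, 2, 3 and 5 were in all 3 replicate lists, site 7 in 2, site 4 in replicate 1 only and site 6 in none.

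CG7560 differed from the others in layout. RefSeq describes its product as an uncharacterized protein, and the gene spans 3L 11425158 to 11426395 on the plus strand with 1 annotated TSS. All 6 sites lay outside protein-coding gene bodies, 5 of them upstream at 2658 to 9612 bp and 1 downstream at 4666 bp. Sites 2, 3 and 4 (summits 11416951, 11417719 and 11418449) had signals of 658.0, 574.6 and 659.0 and lay within 1.5 kb of each other. In replicates 1, 2 and 3, site 4 had signals of 284.8, 225.9 and 131.3, at ranks 194 of 3198, 265 of 2433 and 303 of 1822. Site 2 had 285.5, 239.6 and 185.2, at ranks 192, 230 and 139. Site 3, between them, had 223.5, 186.2 and 88.4, at ranks 320, 387 and 702. Site 2 was thus the highest of these 3 and site 3 the lowest in every replicate. Sites 1 to 5 were in all 3 replicate lists and site 6 (142.0) in none. CG7560 thus has the highest median signal of the 8 genes (450.6), and its territory, the 15.2 kb where its start is the nearest within 10 kb, holds 39.6 sites per 100 kb.

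The other 5 genes carried weaker sites, with medians of 131.3 to 227.8. Apontic (apt), a DNA-binding protein known for its part in tracheal, head and heart development, lies on 2R at 23564891 to 23599526 (plus strand, 34.6 kb). Its 6 intronic sites ranged from 80.4 to 331.4. Site 6 (2R 23593220, 331.4) had signals of 136.8, 122.7 and 83.6 in replicates 1, 2 and 3, at ranks 756, 815 and 762, and sites 3 and 5 were also in all 3 lists. Site 2 of apt, at 80.4, was the weakest of the 50 and was in no replicate list.

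Toutatis (tou), a chromatin protein related to the BAZ2 family and known in the fly to act with the Pannier and Chip proteins, lies on 2R at 11577485 to 11616045 (minus strand, 38.6 kb). Its 5 intronic sites ranged from 120.8 to 274.6. Site 1 (2R 11593767, 274.6), the strongest, had 125.2, 86.7 and 62.1 in replicates 1, 2 and 3, at ranks 861, 1342 and 1240. Sites 1 and 2 were in all 3 replicate lists, sites 3 and 4 in replicates 1 and 3 but not 2, and site 5 in none. Alan shepard (shep), an RNA-binding protein known for roles in neuronal remodelling and in insulator activity, lies on 3L at 5155821 to 5277944 (minus strand, 122.0 kb), the longest of the set. Its sites 1 (410.2) and 6 (393.6) were in all 3 lists, with signals of 142.5, 183.2 and 84.7 and ranks of 700, 396 and 738 for site 1 in replicates 1, 2 and 3. For site 6 the signals were 154.2, 156.7 and 77.8, at ranks 608, 528 and 857. Site 6 lay 194 bp upstream of a start and site 4 (174.3) 330 bp downstream of another, so shep has 2 promoter sites.

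Miles to go (mtgo), a member of the FNDC3 family known in the fly for growth of the neuromuscular junction, lies on 2L at 16545016 to 16663218 (plus strand, 118.0 kb). Its 7 sites had the lowest signals as a group, 102.7 to 166.2. Site 7, 176 bp upstream of a start, was the only one in all 3 replicate lists, with signals of 60.8, 56.3 and 55.8 and ranks of 2243 of 3198, 2240 of 2433 and 1427 of 1822 in replicates 1, 2 and 3. It is thus low in each list. Site 1 (116.7), 365 bp upstream of the first start, was in none. CG43658, whose product RefSeq gives as an uncharacterized protein, lies on X at 17456169 to 17561180 (minus strand, 105.0 kb). Its 6 intronic sites lay between 160.5 and 221.1, the narrowest range of the set. Only site 6 (221.1) was in all 3 lists, with signals of 89.4, 89.3 and 50.1 and ranks of 1389, 1287 and 1609 in replicates 1, 2 and 3.

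**Figure D2:**
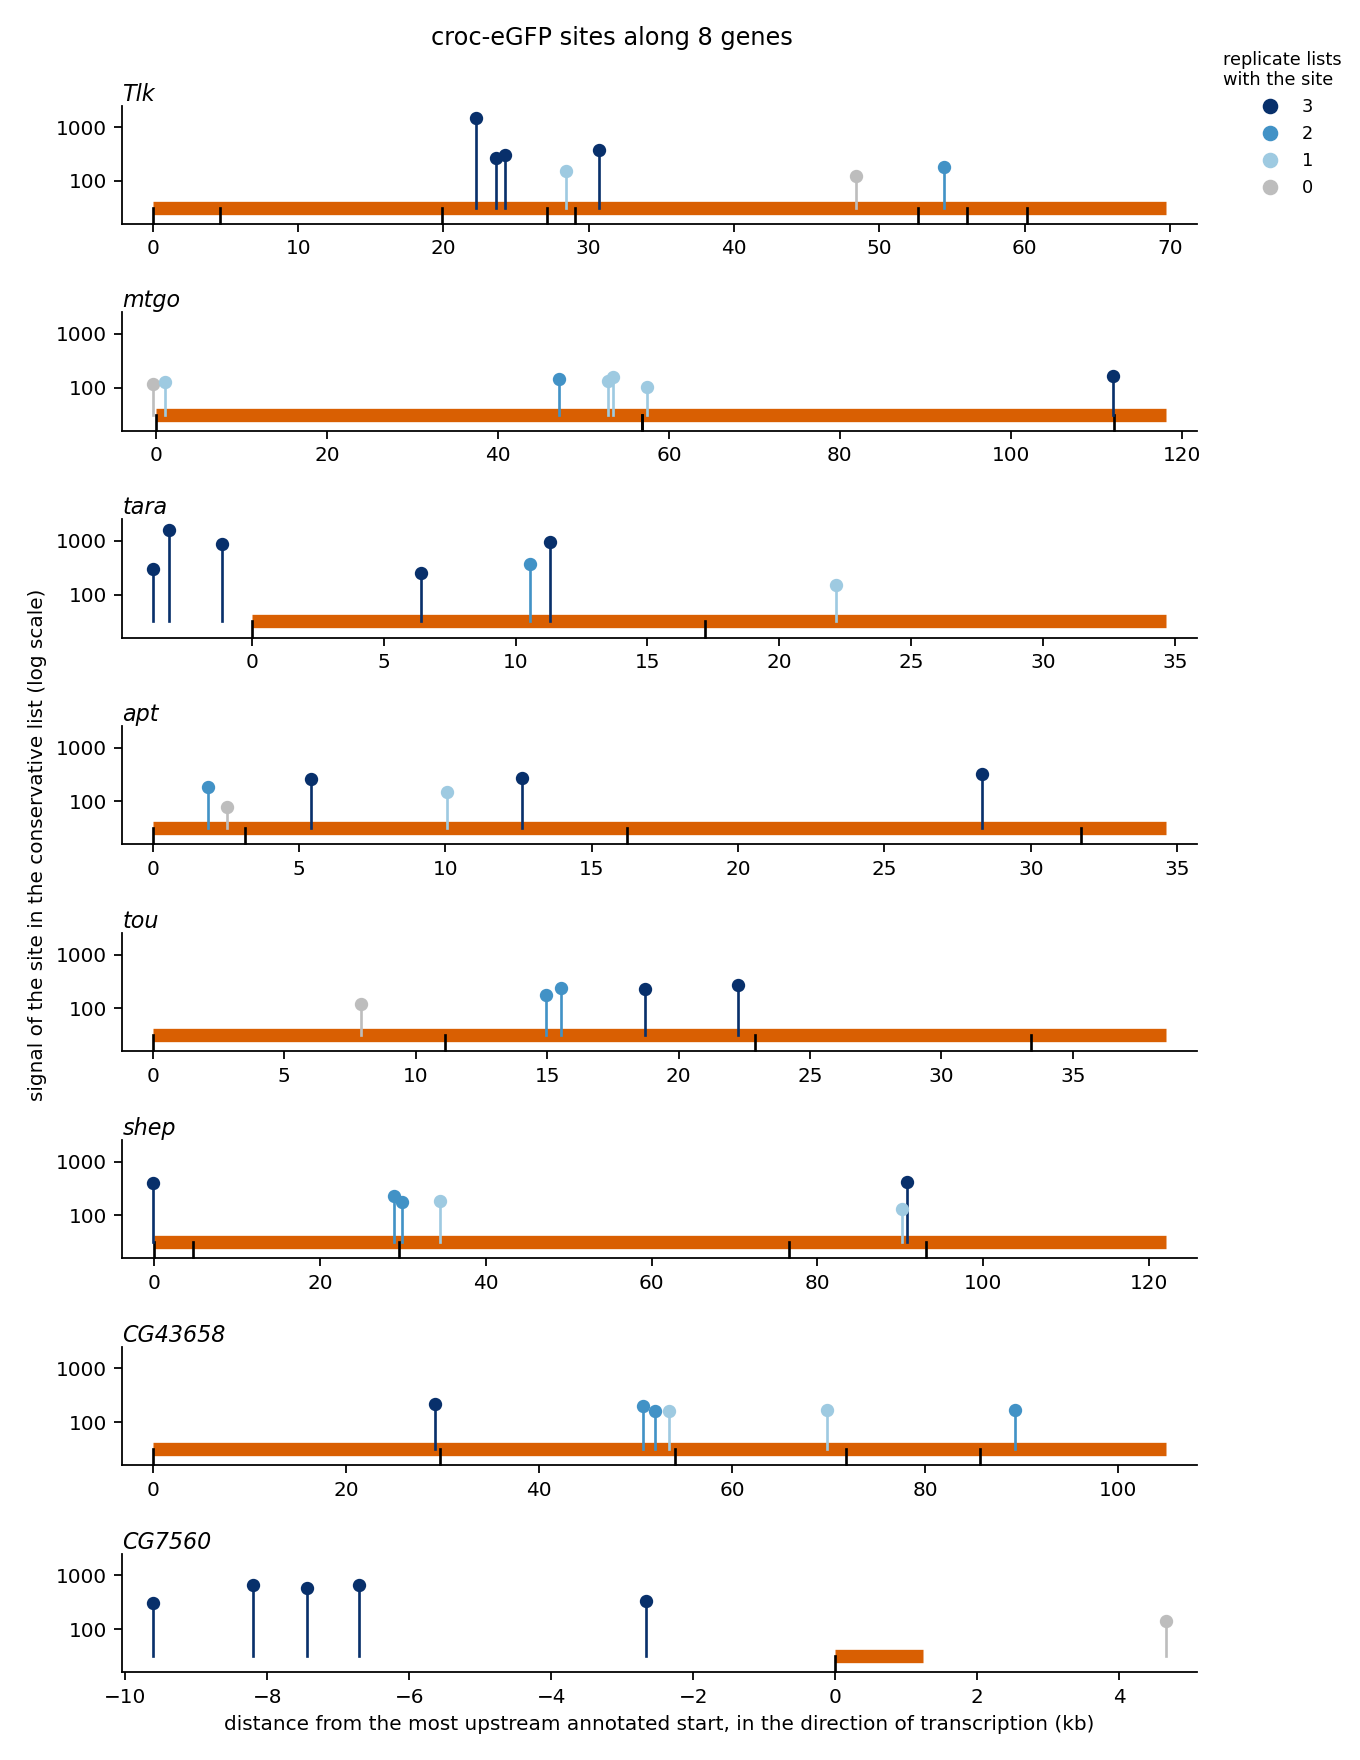
Sites along each gene, with distance from the most upstream annotated start in the direction of transcription (kb, a different range for each gene) and signal on a log axis. Orange bars are gene bodies, black ticks below them are annotated starts, and shade gives the number of thresholded replicate lists that held the site. At CG7560 all sites lie beside the gene. At the other genes they lie inside it, except 3 upstream of tara and 1 each just upstream of mtgo and shep.

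By position, 37 of the 50 sites were intronic (74.0%, interval 59.7 to 85.4%), against 36.2% of all assigned sites, and all 37 lay in introns of the gene they were assigned to. Promoter sites, within 500 bp of a TSS, numbered 4 (8.0%, interval 2.22 to 19.2%), against 45.7%. Within 1000 bp of a TSS there were 11 (22.0%, interval 11.5 to 36.0%), against 56.2%, so the share was the lower one at both limits. Another 9 were intergenic, outside protein-coding genes (18.0%, interval 8.58 to 31.4%), against 16.7%, and none was exonic outside promoters (interval 0 to 7.11%), against 1.38%. The median distance to the nearest TSS was 3166 bp, against 680 bp. Relative to that TSS, 37 sites were upstream (74.0%), against 64.4%. Most of these 37 lay inside their own gene, upstream of an internal start. Those before the whole gene were 5 at CG7560, 3 at tara and 1 each at mtgo and shep. These differences are a description of genes chosen on their peak count, and how far that choice sets them was not tested. The room around the starts differs too. The sequence nearest to a gene's own starts within 10 kb has a median of 4.32 kb over all protein-coding genes. At the 8 genes it is 15.2 to 85.6 kb. How far this sets the distances and promoter shares was not tested.

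The 13 other genes with 6 or more peaks were reached by the same count. Their 71 sites were intronic at 57.7% (interval 45.4 to 69.4%), at promoters at 26.8% (16.9 to 38.6%) and intergenic at 12.7% (5.96 to 22.7%), with a median distance of 1679 bp. They lie between the 8 genes and all sites on the first 2 of these measures and on distance. The intervals of the 8 genes and of these 13 overlap for introns. For promoters they overlap only at their ends (2.22 to 19.2% and 16.9 to 38.6%). Overlap is no test of a difference, and the intervals treat sites of a gene as independent. The median length of the 13 is 22.3 kb (3.67 to 81.2 kb), against 2.17 kb for all protein-coding genes. Among them are shn (9 peaks, 8 sites), ush (9 and 7), CHES-1-like (7 and 6), Raf (7 and 6), Ptpmeg2 (6 and 6) and aop (6 and 6), so the 8 genes hold 5 to 7 sites each and these 6 hold 6 to 8. CHES-1-like encodes another forkhead protein. RapGAP1, Rtnl1, bowl and hng3 had 6 peaks but 5 sites. Just under the threshold, Btk, CBP, Hr4, Kdm2, chn, larp, ph-p and unc-119 had 5 peaks and 5 sites.

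**Figure D3:**
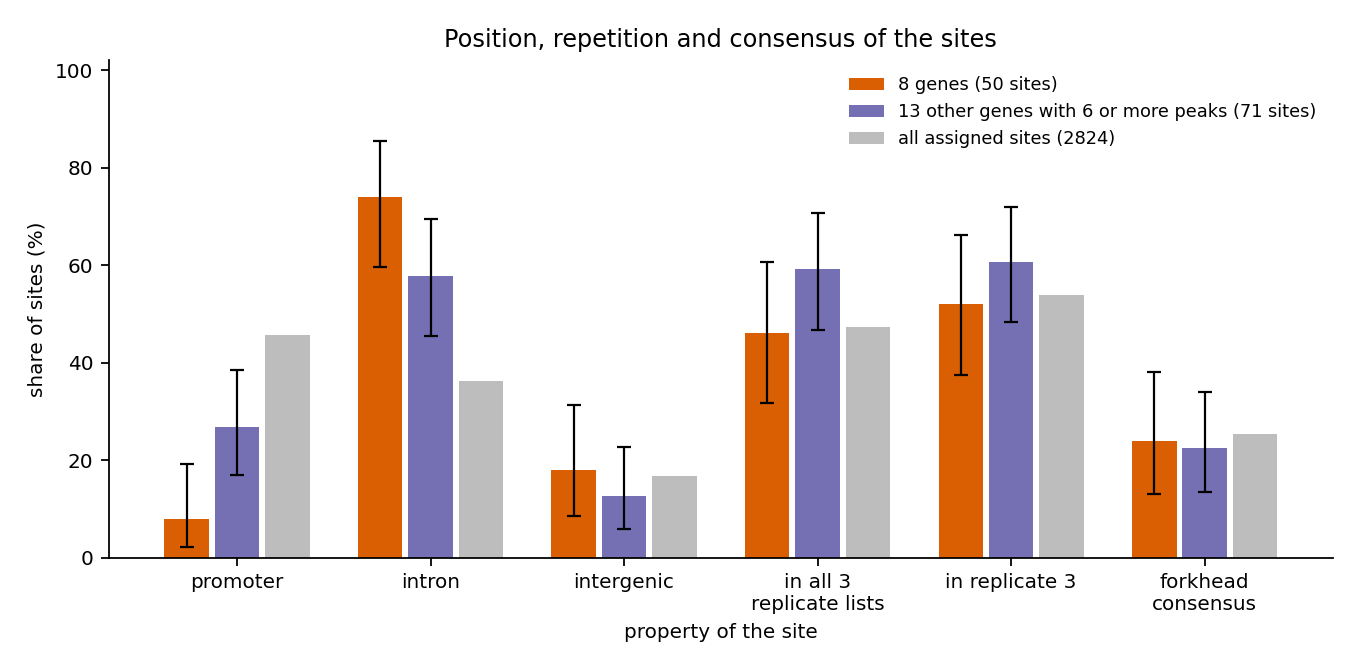
Share of sites (%) with each property for the 8 genes (orange, 50 sites), the 13 other genes with 6 or more peaks (purple, 71 sites) and all assigned sites (grey, 2824). Error bars are exact 95% binomial intervals, which cover counting error only and treat sites of a gene as independent. Intron and promoter shares of the 8 genes lie apart from the grey bars, while the replicate and consensus shares lie near them.

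The territory of a gene is the sequence nearest to its own starts within 10 kb. The 8 genes have 392 kb of it in all, which held 12.7 sites per 100 kb, against 3.01 over all genes. Per gene the density ran from 7.01 at CG43658 and 7.67 at shep, over 11.1 at tou, 11.4 at Tlk, 17.7 at apt, 18.8 at tara and 19.7 at mtgo, up to 39.6 at CG7560. Since the genes were picked on their number of peaks, this is again a description. Neighbouring sites lay a median of 3780 bp apart (42 gaps), against 2662 bp over all genes with more than 1 site (710 gaps). Of the 42 gaps, 10 were under 1000 bp (23.8%, interval 12.1 to 39.5%), near the share over all genes (145 of 710, or 20.4%), the closest at tou (558 bp) and shep (565 bp). The widest gap was 55701 bp, at shep. From the first to the last site the genes span 14.3 kb at tou and CG7560, 25.9 kb at tara, 26.4 kb at apt, 32.2 kb at Tlk, 60.1 kb at CG43658, 91.0 kb at shep and 112.0 kb at mtgo. The sites of mtgo and shep are thus the most spread out, and those of tou and CG7560 the most compact.

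The replicate lists differ in length, with 3198, 2433 and 1822 peaks for replicates 1, 2 and 3, and no read counts were used here, so depth is unknown. Of the 50 sites, the list of replicate 1 held 43 (86.0%, interval 73.3 to 94.2%), against 85.0% of all sites. Replicate 2 held 33 (66.0%, interval 51.2 to 78.8%), against 70.1%. Replicate 3 held 26 (52.0%, interval 37.4 to 66.3%), against 53.8%. All 3 lists held 23 sites (46.0%, interval 31.8 to 60.7%), against 47.3%. Exactly 2 lists held 11 (22.0%), against 23.4%, exactly 1 held 11 (22.0%), against 20.1%, and none held 5 (10%), against 9.17%. Sites at these genes therefore recurred about as often as sites elsewhere. At the 13 other genes, 59.2% (interval 46.8 to 70.7%) were in all 3 lists and 60.6% (48.3 to 72.0%) in that of replicate 3. These intervals overlap those of the 8 genes, which is no test of a difference.

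The file listings name alignments of all 3 replicates behind the conservative list. The ranked list that contains the conservative list records a pair of intervals for each peak, and these trace to replicates 1 and 2. Of the first intervals, 83.5% matched a ranked peak of replicate 1 exactly, and of the second, 86.5% matched one of replicate 2. No interval matched one of replicate 3. The recorded pair does not show that reads of replicate 3 are absent from the peaks or signals. The list of replicate 3 is therefore not an outside check on the sites. By gene, replicate 3 held 5 of 7 tara sites, 5 of 6 CG7560 sites, 4 of 7 Tlk sites, 4 of 5 tou sites and 3 of 6 apt sites, but 2 of 6 at shep, 2 of 6 at CG43658 and 1 of 7 at mtgo. The 5 sites that no thresholded replicate list held were Tlk 6, mtgo 1, apt 2, tou 5 and CG7560 6. Their signals in the conservative list were 80.4 to 142.0, below the median of all sites.

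Counting each replicate's own sites afresh, without reference to the conservative list, gave 7, 6 and 5 at tara in replicates 1, 2 and 3 (6.0 ± 1.0, SD, n = 3). Tlk had 7, 5 and 4 (5.33 ± 1.53), and CG7560 had 5 in each (5.0 ± 0.0). CG43658 had 7, 3 and 3 (4.33 ± 2.31), apt 5, 4 and 3 (4.0 ± 1.0), tou 5, 3 and 4 (4.0 ± 1.0), shep 6, 4 and 2 (4.0 ± 2.0) and mtgo 6, 4 and 1 (3.67 ± 2.52). The means thus run from 6.0 at tara to 3.67 at mtgo. The counts of all genes come from the same 3 lists, so the SDs do not measure whether genes differ. List by list, tara was at or above Tlk and above apt in each. The order of CG7560 and CG43658 changed between lists. All genes share the 3 list lengths (3198, 2433 and 1822 peaks), and how far these set the SDs was not tested. At 7 of the 8 genes the list of replicate 3, the shortest, gave the fewest sites or as few as any other.

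**Figure D4:**
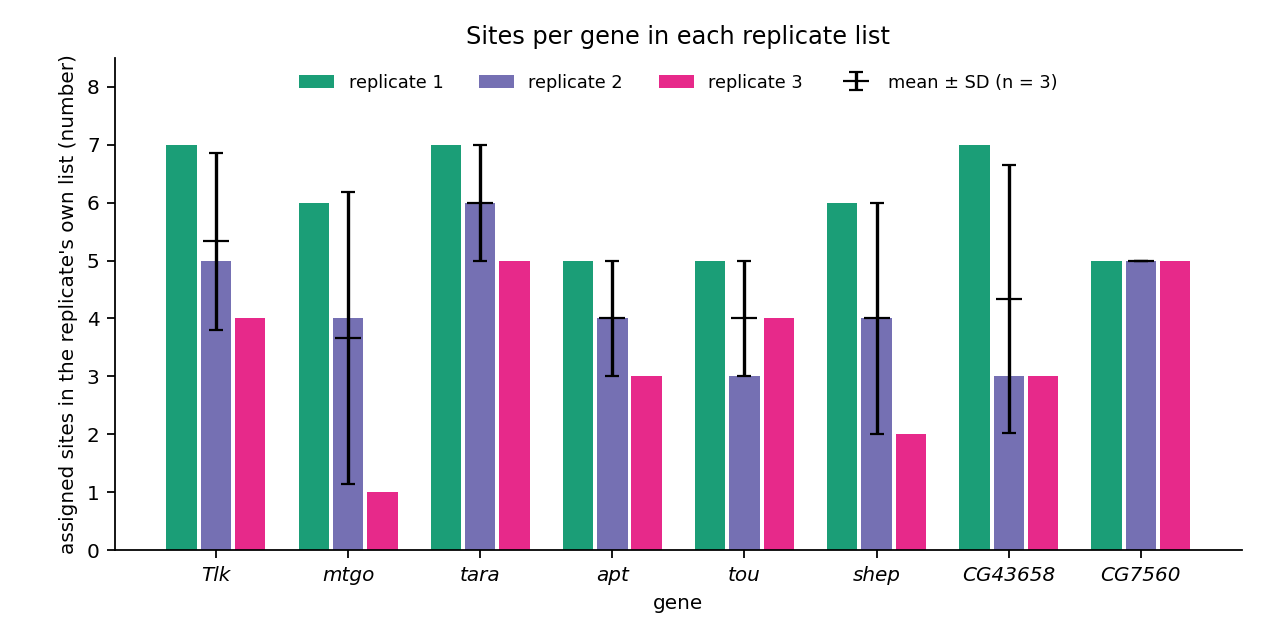
Number of assigned sites per gene in the thresholded list of each replicate (bars), with the mean ± SD of the 3 replicates in black. CG7560 has 5 sites in every replicate, whereas mtgo has 6, 4 and 1 in replicates 1, 2 and 3.

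Genes with 4 or more sites in a single list were rare. All 8 genes reached 4 in replicate 1, where 71 genes did (0.517% of 13741). In replicate 2, 6 of the 8 did, of 33 genes (0.240%), the exceptions being tou and CG43658. In replicate 3, 4 of the 8 did, of 18 genes (0.131%), namely Tlk, tara, tou and CG7560. The genes were picked on a list that, per its listing, derives from these same 3 libraries, so the counts are given as a description. The replicate lists also held 7 summits at these genes that were at no site of the conservative list. Of these, 5 were in replicate 1 (2 at mtgo and 1 each at Tlk, tou and CG43658), 1 in replicate 2 at tou and 1 in replicate 3 at CG43658. The CG43658 summits (X 17510766 and 17510657) lie within 250 bp of each other, so the 7 are not all distinct locations. The one in replicate 3 is also within the median peak width of site 5.

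With peaks below the threshold included, nearly every site had a peak within 250 bp in each replicate. The ranked lists, which hold peaks of all strengths, contained all 50 sites in replicate 1 (against 99.4% of all sites), all 50 in replicate 2 (99.2%) and 46 in replicate 3 (95.1%). The 4 missing from replicate 3 were mtgo 3, mtgo 5, apt 2 and tou 5. Presence in the ranked lists of replicates 1 and 2 was largely set in advance. The intervals recorded behind the conservative list trace to those replicates. Passing the threshold did not follow signal alone, since tara site 5, with a signal of 83.2 in the ranked list of replicate 3, was not in its thresholded list, whereas tara sites 1 and 4, with 50.4 and 60.1, were. The median site lay in the top 5.72%, 9.5% and 6.16% of the ranked lists of replicates 1, 2 and 3. The lowest in replicate 3 were mtgo 1 and mtgo 2, with a signal of 19.1 at ranks 14699 and 14656 of 22972. Those matched summits lay 93 and 65 bp away, and whether such weak matches arise by chance was not tested. Summits in the thresholded lists lay a median of 14, 7 and 10 bp from the conservative summit in replicates 1, 2 and 3, and no more than 82 bp. Ranks ran in a similar order in each pair of replicates, with Spearman's rho of 0.861 for replicates 1 and 2 (50 sites), 0.798 for 1 and 3 (46 sites) and 0.749 for 2 and 3 (46 sites). These values describe sites that share libraries and were chosen as strong, and no p is attached to them. Replicates 1 and 2 are also the pair to which the recorded intervals trace. Their rho is therefore not independent of how the sites were picked.

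**Figure D5:**
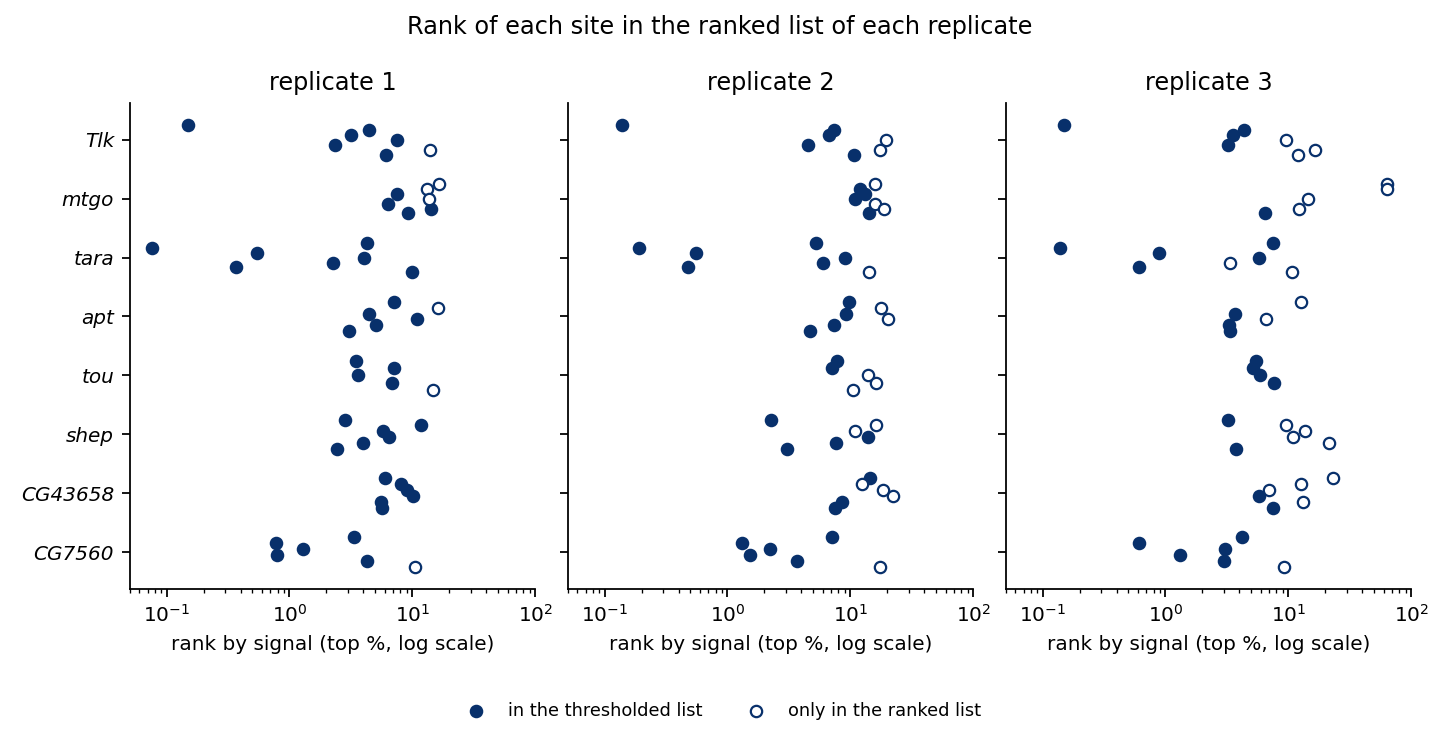
Rank by signal of each site in the ranked list of each replicate (top %, log axis, strongest on the left), by gene. Filled points passed the threshold of that replicate's list and open points are in the ranked list only. The leftmost points in every panel belong to tara and Tlk, and open points lie mostly on the right.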

How the data were processed

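ChIP-seq peak lists of 3 biological replicates (1 group) were analysed on the dm6 build. Per the labels' file listings, each replicate has a ranked and a thresholded list made with the irreproducible discovery rate (IDR), and the series lists, including the conservative one, derive from all 3 replicates and a control. Aligner and peak caller: not given in the sources used here. Signal, as deposited, is a value per peak whose scale is not stated, and it was compared only within a list. Peaks on the 6 chromosome arms were assigned to the nearest protein-coding TSS (Ensembl release 115, BDGP 6.54) within 10 kb, kept when at least the median peak width from a stronger summit, called promoter within 500 bp and shared within 250 bp. Forkhead words were searched in 101-base windows of the Release 6 sequence. Intervals are exact Clopper-Pearson, at the 95% level, and cover counting error only. They treat the sites of a gene as independent, although the 50 sites come from 8 genes. The genes named are the 8, genes with 5 or more sites or a closer start, and hosts of sites. The members, lists and rules were chosen with earlier results of these data known, and ATGGCGCCA after its sequence was seen, so no test was run. The steps were tested on simulated data. Python 3.11.15, pandas 2.3.3, numpy 2.4.6, scipy 1.17.1 and matplotlib 3.10.9 were used.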

Additional observations from a re-analysis of the deposited data

How the results depend on the processing

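Of 39 recomputed values, 29 stayed near the reported value and 10 moved. Near means a count within 1.5 times, a share inside the exact interval, or a median distance within 1 SD of the replicates. The number of sites at the 8 genes, 50, became 29 with the strongest 50% of peaks and 23 without replicate 1, 26 without replicate 2 and 31 without replicate 3, where a site counts only if both remaining lists hold it. By construction, these settings could only lower the count. The share in all 3 lists, 46.0%, became 92.0% with the ranked lists and ranged from 46.0% to 62.0% when 1 replicate was left out. Leaving out a list could only keep or raise that share. Promoter sites were 8.0% at 500 bp and 22.0% at 1000 bp, against 45.7% and 56.2% of all sites. The median distance to a TSS of 3166 bp became 2346 bp with a limit of 5 kb and, in a setting added after seeing the data, 2936 bp without CG7560. Forkhead words were at 24.0% of sites within 50 bp of the summit and at 42.0% within 100 bp, a longer window in which a match is likelier by construction. No paired analysis was possible because there is 1 group. Depth is unknown, and 50 sites leave wide intervals.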
